A study of Mus musculus with 8 samples.

Results

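Of the 8 libraries in a mouse regulatory T (Treg) cell RNA-seq series, 4 are described here: 2 of Treg cells lacking both Relb and Nfkb2 (DKO) and 2 of Treg cells lacking Nfkb2 alone (Nfkb2-KO). The libraries were chosen by their genotype labels, and the comparison was DKO minus Nfkb2-KO, with replicate number as a block. It sets Treg cells of 2 genotypes side by side. RelB removal below is a name for the added RelB deletion in a genotype, not for a step that followed the loss of Nfkb2. Of the 22432 genes in the deposited table, 16184 were not at 0 in every library and had no blank cell, and 13797 of these passed a minimum on expression and were tested.

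All mice were C57Bl/6 with Foxp3-CRE-YFP, a Cre recombinase and yellow fluorescent reporter expressed from Foxp3, which directs deletion of floxed alleles to Foxp3-expressing cells. Nfkb2-KO cells carried nfkb2 F/F. DKO cells carried RelB F/F and nfkb2 F/F, so the Nfkb2 deletion was shared by both groups. The remaining 4 libraries were WT (Cre alone, 2 libraries) and RelB-KO (RelB F/F, 2 libraries), and they are used here for the shared estimate of spread and for the same removal of RelB in cells that kept Nfkb2. YFP+ cells were sorted from pooled spleen and lymph nodes and kept for 16 h on plates coated with anti-CD3 (5 µg/ml). The medium held anti-CD28 (1 µg/ml), IL-2 (10 ng/ml) and an antibody that activates the co-stimulatory receptor OX40 (2 µg/ml). Ages and sexes are not given in the sources used here. The labels do not say whether replicates came from separate animals, so p-values measure only the spread between these libraries.

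NF-kB transcription factors are dimers of Rel-family proteins. In the alternative pathway, receptors such as OX40, the lymphotoxin receptor and CD40 stabilise the kinase NIK, which has the Nfkb2 product p100 processed to p52, the usual partner of RelB. Unprocessed p100 also acts as an inhibitor, holding RelB and other Rel proteins in the cytoplasm, so cells without Nfkb2 lack both a subunit and an inhibitor. Treg cells, defined by the transcription factor Foxp3, restrain immune responses and receive OX40 and other TNF receptor signals after activation.

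Values are log2 expression relative to library size, as deposited, and differences are DKO minus Nfkb2-KO ± the standard error of the linear model, with n = 2 libraries in each genotype. A gene was called when its limma p-value, Benjamini-Hochberg adjusted over all 13797 genes, was under 0.05. The 2 deleted genes were checked before anything else. Relb (chromosome 7, 19606217 to 19629438, minus strand, GRCm38) was at 10.84 and 10.83 in Nfkb2-KO and 6.74 and 7.08 in DKO, a difference of -3.93 ± 0.12, adjusted p = 2.51e-06. Both DKO libraries thus stood far below both Nfkb2-KO libraries, and RelB-KO libraries were also low (6.35 and 6.52, against 10.66 and 10.49 in WT). Nfkb2 (chromosome 19, 46304320 to 46312385, plus strand) was at 8.75 and 8.79 in Nfkb2-KO and 9.29 and 9.85 in DKO, and at 12.79 and 12.62 in WT and 12.67 and 12.31 in RelB-KO. Both deleted genotypes were below every library that kept Nfkb2. Residual Nfkb2 transcript was nevertheless higher in DKO than in Nfkb2-KO by 0.80 ± 0.18, adjusted p = 0.0379, a call that was lost without the block. Whether the 2 deleted genotypes kept the same amount of Nfkb2 protein was not tested.

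Foxp3 (chromosome X, 7573644 to 7595245) was high in every library, at 14.07 and 14.05 in Nfkb2-KO and 14.19 and 13.95 in DKO, and the groups overlapped (0.01 ± 0.10, adjusted p = 0.983). Markers of the sorted lineage were likewise present throughout: the CD3 chains, Cd4 and Lck lay between 11.84 and 13.84 in the 8 libraries. The series has further facts that bear on reading the values. Un-logged values sum to between 18.2 and 19.7 M per library, the design gives 30 M reads per sample, and the read depth behind each value is otherwise unknown. Replicate 1 differed from replicate 2 by a set of genes shared by all genotypes, and 92 genes differed between the replicates by over 2 log2 units in every genotype; 0 of them were called here. WT replicate 1 had Xist at 8.17 and Ddx3y at 11.6, against 14.61 to 15.13 and 4.25 to 4.35 in the other 7 libraries. The part of this difference in the comparisons with WT was not tested, since a fit without the library cannot separate it from the library's other traits. This library enters DKO minus Nfkb2-KO only through the shared spread and the block.

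Between DKO and Nfkb2-KO Treg cells 693 genes were called (5.02% of those tested), with 408 lower (2.96%) and 285 higher (2.07%) in DKO. The sizes were uneven. Among the lower genes, 70 differed by at least 1 log2 unit and 12 by at least 2, whereas among the higher genes 24 differed by at least 1 and 0 by at least 2. Median differences were -0.59 for genes called lower and 0.52 for genes called higher, and 0.00 over all genes tested. Of the called genes, 402 of 408 and 270 of 285 had both DKO libraries on 1 side of both Nfkb2-KO libraries, which 35.1% of all genes tested also had. The count depended on the libraries and the model: 349 genes were called without Nfkb2-KO replicate 1, 379 without Nfkb2-KO replicate 2, 260 without DKO replicate 1 and 135 without DKO replicate 2. Without the replicate block 106 genes were called (17 higher), and all 106 were among the 693. In bulk RNA, fewer cells of a kind and less RNA per cell cannot be told apart.

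**Figure D1:**
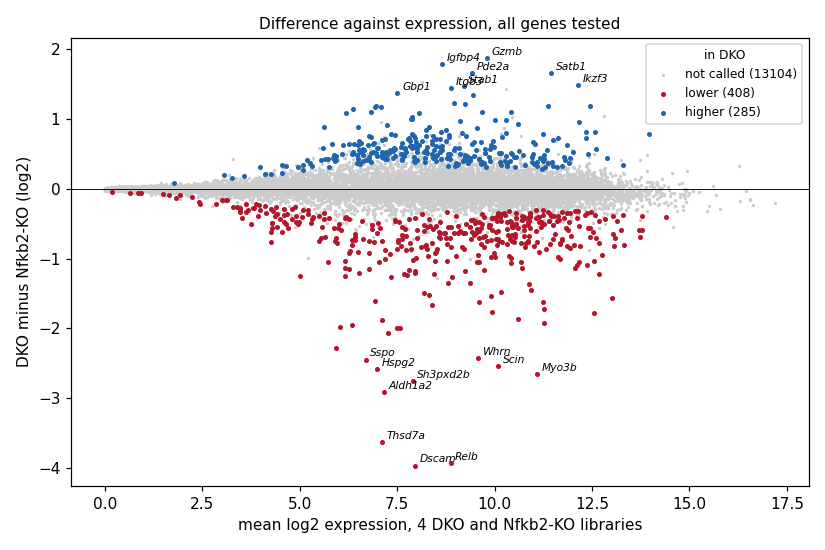
DKO minus Nfkb2-KO difference (vertical axis, log2) against mean log2 expression over the 4 libraries (horizontal axis) for the 13797 genes tested; red points were called lower in DKO, blue points higher and grey points not called. The 12 lower genes beyond 2 log2 units, Relb among them, have no counterpart of that size among the higher genes.

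The genes that fell most, apart from Relb, encode adhesion, matrix, cytoskeletal and enzyme proteins. Dscam (chromosome 16, 96590840 to 97170752), an immunoglobulin-family adhesion molecule best known from neurons, was at 9.95 and 9.94 in Nfkb2-KO and 6.01 and 5.96 in DKO, a difference of -3.96 ± 0.17, adjusted p = 1.33e-05. Aldh1a2 (chromosome 9, 71215789 to 71296243), the retinaldehyde dehydrogenase that makes retinoic acid, was at 8.49 and 8.72 in Nfkb2-KO and 5.73 and 5.67 in DKO (-2.91 ± 0.11, adjusted p = 9.37e-06). In both genes the 2 DKO libraries lay close together and well below both Nfkb2-KO libraries. Hspg2, which encodes the basement membrane proteoglycan perlecan, was at 8.23 and 8.34 in Nfkb2-KO and 5.56 and 5.85 in DKO (-2.58 ± 0.11, adjusted p = 1.33e-05). Vcam1, the adhesion molecule bound by the integrin VLA-4, was at 8.32 and 8.29 in Nfkb2-KO and 6.23 and 6.26 in DKO (-2.06 ± 0.15, adjusted p = 0.000288). Scin, an actin-severing protein, was at 11.48 and 11.25 in Nfkb2-KO and 9.08 and 8.56 in DKO (-2.54 ± 0.21, adjusted p = 0.00044). All 5 of these genes were above WT in the cells lacking Nfkb2 alone: WT libraries held Dscam at 7.14 and 7.84, Aldh1a2 at 6.40 and 6.29, Hspg2 at 5.86 and 6.41, Vcam1 at 6.39 and 6.80 and Scin at 8.80 and 9.39. DKO libraries were thus near or below the WT levels.

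The other leading lower genes were Thsd7a, a membrane protein with thrombospondin repeats (-3.62 ± 0.30), Sh3pxd2b, a podosome scaffold (-2.75 ± 0.15), Myo3b, a class III myosin (-2.65 ± 0.19), Sspo, which encodes SCO-spondin (-2.45 ± 0.22), Whrn, the scaffold whirlin (-2.43 ± 0.14), Rnf165, a RING-type ubiquitin ligase (-2.28 ± 0.12), Ecel1, an endothelin-converting-enzyme-like protease (-2.0 ± 0.34), Pkdcc, a secreted protein kinase (-1.99 ± 0.25) and Stc1, the hormone stanniocalcin 1 (-1.98 ± 0.17). Adjusted p-values for these 9 lay between 4.49e-05 and 0.0122. Ecel1 was the least even: its Nfkb2-KO libraries were at 9.15 and 7.98 and its DKO libraries at 6.84 and 6.29, and alone among the 15 leading lower genes it was not called without the block. Ecel1 and Pkdcc were not called in every fit that left out 1 library, and the other 13, Relb included, were.

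Genes that rose most in DKO included an effector protease and several regulators of T cell state. Gzmb (chromosome 14, 56258838 to 56262260), the cytotoxic protease granzyme B, was at 8.33 and 9.39 in Nfkb2-KO and 9.97 and 11.49 in DKO, a difference of 1.87 ± 0.15, adjusted p = 0.0004. Replicate 2 was above replicate 1 in both genotypes, and the lower DKO library exceeded the higher Nfkb2-KO library. Satb1, a chromatin organiser needed for T cell development, was at 10.60 and 10.65 in Nfkb2-KO and 12.29 and 12.28 in DKO (1.66 ± 0.16, adjusted p = 0.000909). Ikzf3 (chromosome 11, 98464902 to 98546031), the Ikaros-family factor Aiolos, was at 11.32 and 11.49 in Nfkb2-KO and 12.73 and 13.06 in DKO (1.49 ± 0.08, adjusted p = 4.49e-05). For Satb1 and Ikzf3 the 2 libraries of each genotype agreed closely compared with the distance between genotypes. Pde2a, a phosphodiesterase that degrades cyclic nucleotides, was at 8.64 and 8.53 in Nfkb2-KO and 10.38 and 10.11 in DKO (1.66 ± 0.16, adjusted p = 0.000876). Itgb3, the integrin beta 3 chain, was at 8.19 and 8.11 in Nfkb2-KO and 9.75 and 9.45 in DKO (1.45 ± 0.09, adjusted p = 9.85e-05). All 5 were below WT in Nfkb2-KO: WT libraries held Gzmb at 9.85 and 10.85, Satb1 at 12.26 and 11.54, Ikzf3 at 12.14 and 12.23, Pde2a at 10.17 and 10.24 and Itgb3 at 9.25 and 9.05.

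Other leading higher genes were Igfbp4, an insulin-like growth factor binding protein (1.79 ± 0.25), Stab1, a scavenger receptor (1.48 ± 0.15), Gbp1 (1.37 ± 0.13) and Gbp2 (1.19 ± 0.16), interferon-inducible guanylate-binding proteins, Adarb1, an RNA-editing adenosine deaminase (1.35 ± 0.19), Klrg1, an inhibitory receptor of differentiated effector cells (1.23 ± 0.24), Metrnl, a secreted meteorin-like protein (1.22 ± 0.19), Pde3b, a phosphodiesterase inhibited by cGMP (1.18 ± 0.12) and Trf, transferrin (1.17 ± 0.16). Their adjusted p-values ran from 0.000982 to 0.0216. Klrg1 sat nearest the threshold, at 8.31 and 8.38 in Nfkb2-KO and 9.49 and 9.65 in DKO. Without the replicate block Gzmb, Igfbp4, Adarb1, Klrg1, Metrnl, Gbp2 and Trf were not called. Pde2a, Stab1 and Trf overlap other coding genes in the annotation, and whether the authors' counting used strand is not given in the sources used here. The row named Gbp1 had no match under that symbol in the annotation used here, so which locus it measures is unsure.

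**Figure D2:**
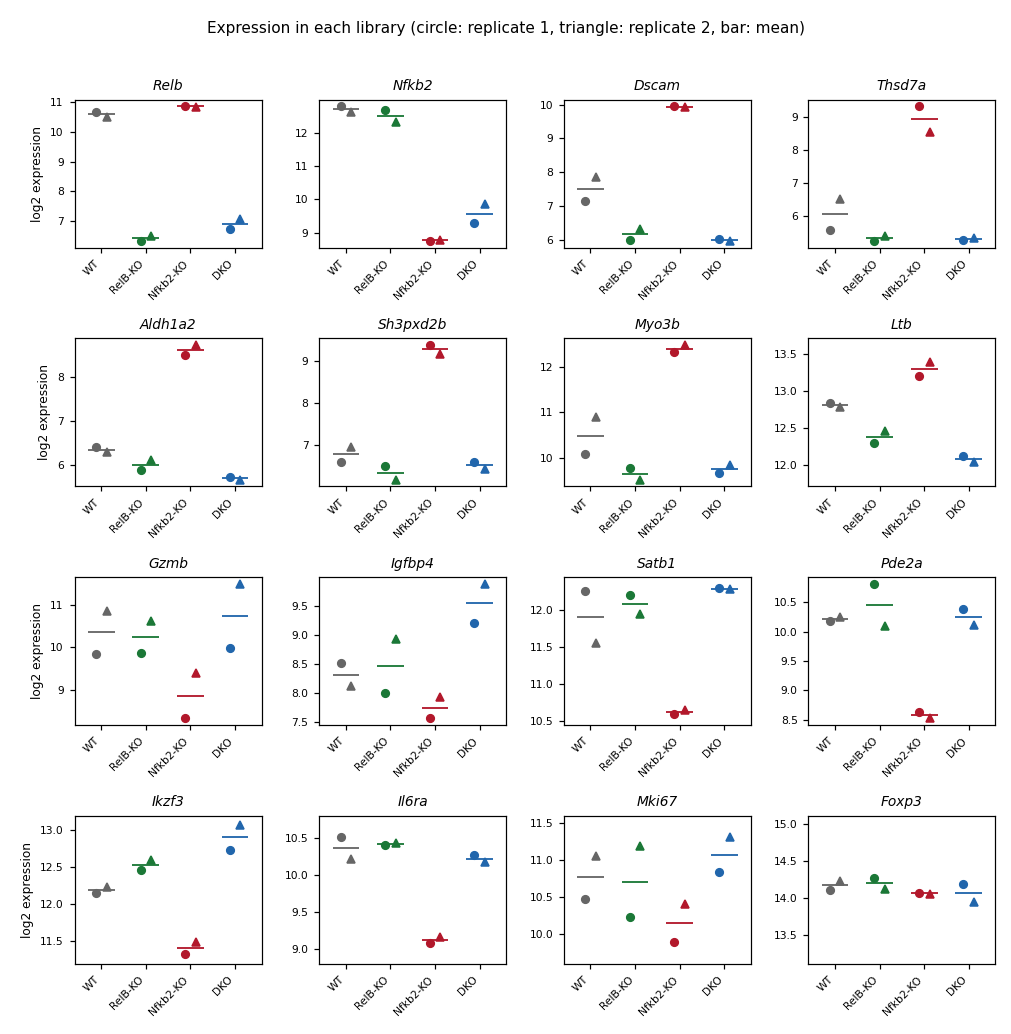
Log2 expression (vertical axes) of 16 genes in each of the 8 libraries, by genotype; circles are replicate 1, triangles replicate 2 and bars the mean of the 2. Relb is low in RelB-KO and DKO and Nfkb2 in Nfkb2-KO and DKO; Dscam and Aldh1a2 peak in Nfkb2-KO, Gzmb, Satb1 and Ikzf3 are lowest there, and Foxp3 overlaps across genotypes.

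Of 5 NF-kB subunit genes, Rel and Relb, which was deleted by design, were called lower and Nfkb2 higher. For this list and the lists below, the shares over all genes tested were 2.96% called lower and 2.07% called higher. All lists were drawn up with earlier results of these data known. Several hold leading genes given above, and the counts of those lists are not independent of these genes. Rel, the c-Rel subunit of the classical pathway that is needed for Treg development, was at 11.81 and 11.69 in Nfkb2-KO and 11.50 and 10.96 in DKO (-0.52 ± 0.10, adjusted p = 0.0181), and was not called without the block. Rela (-0.12 ± 0.08, adjusted p = 0.529) and Nfkb1 (-0.20 ± 0.09, adjusted p = 0.334), the p65 and p105/p50 genes, were not called. Among 11 genes of the IkB family and feedback inhibitors, 3 fell and 0 rose. These were Nfkbie, which encodes IkB epsilon (-0.73 ± 0.10, adjusted p = 0.00442), Tnip2, an A20-binding inhibitor (-0.52 ± 0.07, adjusted p = 0.00488) and Otud7b, a deubiquitinase that acts on TRAF3 (-0.48 ± 0.07, adjusted p = 0.00752). The most direct feedback genes did not pass: Nfkbia was at -0.29, Tnfaip3 (A20) at -0.22 and Tnip1 at -0.28, with adjusted p-values of 0.299, 0.663 and 0.0546. Nfkbid, Nfkbiz, Bcl3, Nfkbib and Cyld also did not pass, with differences between -0.32 and 0.06. The number of lower inhibitors was 2 without Nfkb2-KO replicate 1, 3 without Nfkb2-KO replicate 2, 2 without DKO replicate 1 and 1 without DKO replicate 2, and 0 without the block.

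Upstream of the subunits, 3 of 13 genes for NIK, TRAF adaptors, cIAP ubiquitin ligases and IKK kinases fell and 0 rose. Birc2 (cIAP1), part of the complex that degrades NIK, was at 12.16 and 12.19 in Nfkb2-KO and 11.35 and 10.97 in DKO (-1.01 ± 0.11, adjusted p = 0.00148). Traf1, an adaptor induced by NF-kB, was at 13.24 and 13.25 in Nfkb2-KO and 12.46 and 12.12 in DKO (-0.95 ± 0.11, adjusted p = 0.00208). In both genes the Nfkb2-KO libraries were almost equal and both DKO libraries lay below them. Traf2, which joins cIAP to TRAF3, differed by -0.47 ± 0.07, adjusted p = 0.00631, and Traf3, the adaptor that presents NIK for degradation, by -0.28 with an adjusted p of 0.0553. Map3k14, the gene for NIK, was at 10.48 and 10.42 in Nfkb2-KO and 10.54 and 10.38 in DKO, a difference of 0.01 ± 0.08, so the groups overlapped. Chuk (IKK alpha), Ikbkb, Ikbkg, Tbk1, Traf6 and Birc3 differed by -0.21 (Birc3) or less in size and did not pass, and Ikbke (0.40) and Traf5 (0.30) also did not. Of the 3 lower calls, Birc2 alone held without the block.

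Promoter sequence was read for the called genes because several of the lowered genes are textbook NF-kB targets. The windows ran from 250 bases before to 50 after each RefSeq transcript start (GRCm38.p6), and both strands were searched for the NF-kB consensus motif. The motif was found in 84 of 420 windows (20%) of genes called lower, in 44 of 299 windows (14.7%) of genes called higher, in 1618 of 12055 windows (13.4%) of tested genes that were not called, and in 11.2% of all 32851 windows. Among the leading genes described above the order was the other way, with 1 of 11 windows (9.09%) of the leading lower and 4 of 16 (25%) of the leading higher genes. Windows were matched by symbol for 310 of the 408 lower and 221 of the 285 higher genes. Of the 108 called genes named by rule, 80 had a window and 16 a match. A match is a string of letters and shows neither binding nor a cause. The stretches below, all upstream of the start, are from the lowered subunit gene Rel, the lowered inhibitor gene Nfkbie, the lowered target Ltb, the lowered chemokine receptor gene Ccr6 and the raised gene Satb1, with the matching bases in capitals.

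Rel, minus strand, chr11:23771032-23771081, matches at -92 to -83 and -91 to -82:
Rel: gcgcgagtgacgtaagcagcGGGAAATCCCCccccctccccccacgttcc
Nfkbie, plus strand, chr17:45555574-45555623, match at -106 to -97:
Nfkbie: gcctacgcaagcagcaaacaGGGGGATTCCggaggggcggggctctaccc
Ltb, plus strand, chr17:35194400-35194449, match at -87 to -78:
Ltb: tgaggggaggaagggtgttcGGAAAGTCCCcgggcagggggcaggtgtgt
Ccr6, plus strand, chr17:8242425-8242474, matches at -81 to -72 and -80 to -71:
Ccr6: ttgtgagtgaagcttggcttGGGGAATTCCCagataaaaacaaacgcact
Satb1, minus strand, chr17:51833396-51833445, match at -135 to -126:
Satb1: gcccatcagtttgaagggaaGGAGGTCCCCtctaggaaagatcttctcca

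Of 29 tested genes on a list of NF-kB targets, 13 fell and 1 rose, against 2.96% and 2.07% of all genes tested. The median difference was -0.36 against 0.00 over all genes. Ltb, the gene for lymphotoxin beta and 1 of the genes printed above, was at 13.19 and 13.38 in Nfkb2-KO and 12.11 and 12.03 in DKO (-1.21 ± 0.09, adjusted p = 0.000275). Fas, the death receptor, was at 10.97 and 10.88 in Nfkb2-KO and 10.28 and 9.60 in DKO (-0.99 ± 0.13, adjusted p = 0.00401). Vcam1, Relb, Traf1 and Nfkbie, described already, are also on this list, and Relb was deleted by design. The anti-apoptotic Bcl2a1 copies fell as well, with differences of -0.74 ± 0.12 for Bcl2a1b, -0.70 ± 0.14 for Bcl2a1d and -0.49 ± 0.06 for Bcl2a1a; these genes are nearly identical, so reads may have been split among them. The number of lower targets was 9 without Nfkb2-KO replicate 1, 8 without Nfkb2-KO replicate 2, 7 without DKO replicate 1 and 4 without DKO replicate 2, and 3 without the block.

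TNF superfamily ligands, the secreted or membrane signals that engage receptors such as OX40, fell in 9 of 14 genes and rose in 0, and 13 of 14 differences were negative (median -0.39). Besides Ltb, Lta (lymphotoxin alpha) was at 12.22 and 12.37 in Nfkb2-KO and 11.67 and 11.57 in DKO (-0.67 ± 0.10, adjusted p = 0.00725). Tnfsf15 (TL1A) was at 7.43 and 7.28 in Nfkb2-KO and 6.32 and 6.10 in DKO (-1.15 ± 0.10, adjusted p = 0.0006). Tnfsf14 (LIGHT) was at 9.07 and 8.81 in Nfkb2-KO and 8.04 and 8.01 in DKO (-0.91 ± 0.13, adjusted p = 0.00519). All 3 had their DKO libraries below both Nfkb2-KO libraries. Fasl, the ligand of Fas, differed by -0.52 ± 0.10, adjusted p = 0.019. The number of lower ligands was 4 without Nfkb2-KO replicate 1, 3 without Nfkb2-KO replicate 2, 3 without DKO replicate 1 and 2 without DKO replicate 2, and 2 without the block.

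Of 21 TNF receptors, 2 fell and 1 rose, with a median of 0.06 (over all genes tested 2.96% fell and 2.07% rose). Whether receptors and ligands differed was not tested. Tnfrsf11a (RANK) was at 6.09 and 6.41 in Nfkb2-KO and 5.17 and 5.23 in DKO (-1.05 ± 0.11, adjusted p = 0.00109), and Fas is given above. Ltbr, the lymphotoxin beta receptor, was expressed near the low end of the scale and rose by 0.32 ± 0.06, adjusted p = 0.0184. Among 16 BCL2-family genes the Bcl2a1 copies and the pro-apoptotic Pmaip1 (Noxa, -0.50 ± 0.11, adjusted p = 0.0378) fell, and 1 gene rose. None of the 4 lower BCL2-family calls remained without DKO replicate 1 or without DKO replicate 2.

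**Figure D3:**
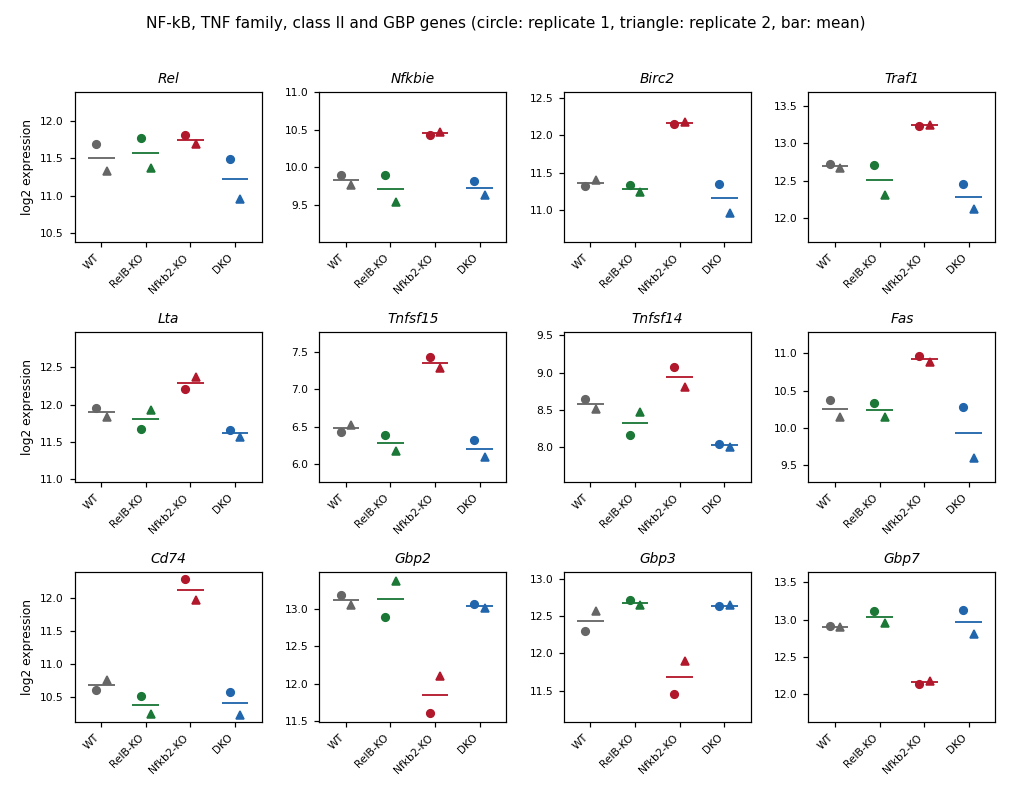
Log2 expression (vertical axes) in each library, by genotype, of 12 genes of the NF-kB, TNF family, MHC class II and guanylate-binding protein lists; circles are replicate 1, triangles replicate 2 and bars the mean. Birc2, Traf1, Tnfsf15 and Cd74 are highest in the Nfkb2-KO libraries and are near or below the WT level in DKO.

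Retinoic acid genes, which cover synthesis, transport and the nuclear receptors, fell in 4 of 13 and rose in 1, with a median of -0.01. Beside Aldh1a2, Stra6, a retinol transporter, was at 6.63 and 7.28 in Nfkb2-KO and 5.82 and 6.28 in DKO (-0.91 ± 0.14, adjusted p = 0.00752), and Rarg, a retinoic acid receptor, at 10.50 and 10.66 in Nfkb2-KO and 9.92 and 9.72 in DKO (-0.76 ± 0.11, adjusted p = 0.00624). Dhrs3, which reduces retinaldehyde back to retinol, rose by 0.58 ± 0.14, adjusted p = 0.0499, the smallest margin of any gene named here. Without the block Aldh1a2 alone was called. Stra6 overlaps another coding gene, Ccdc33.

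Adhesion, matrix and cytoskeletal lists had medians near 0, with some members that changed by a large amount. Like the other lists, these were drawn up with earlier results of these data known, and several called members are leading genes given above. Their counts are therefore not independent of those genes. In 17 immunoglobulin-family adhesion molecules the 3 genes called, Dscam, Vcam1 and Igsf3, all fell, and the list median was 0.00. Igsf3 was at 8.11 and 7.98 in Nfkb2-KO and 6.19 and 6.16 in DKO (-1.88 ± 0.09, adjusted p = 2.55e-05). These 3 calls held without the block and without any 1 of the 8 libraries. In 30 actin and cytoskeletal genes 7 fell and 1 rose (median 0.01), with Sh3pxd2b, Myo3b, Scin and Whrn as the largest, and 5 of the 7 held without the block. In 24 matrix genes 2 fell and 2 rose (median 0.01). Opposite directions occurred within that list: Hspg2 fell, whereas Nid2, which encodes the basement membrane protein nidogen 2, was at 5.76 and 5.84 in Nfkb2-KO and 6.83 and 7.05 in DKO (1.14 ± 0.11, adjusted p = 0.00101). Nid1 (-0.26 ± 0.05) and Col18a1 (0.33 ± 0.07) changed by small amounts at low expression, and Nid2 and Col18a1 overlap other coding genes. Among 18 integrin chains Itgb3 rose and Itgav (-0.39 ± 0.08) and Itgb8 (-0.41 ± 0.09), the 2 chains of an integrin that activates TGF-beta, fell; neither lower call held without Nfkb2-KO replicate 1, Nfkb2-KO replicate 2, DKO replicate 1 or DKO replicate 2.

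MHC class II genes, which load and present peptides to CD4 T cells and are usually associated with antigen-presenting cells in mice, fell in 4 of 10 genes and rose in 0; the other 6 did not pass, and all 10 differences were negative (median -0.22). Cd74, the invariant chain, was at 12.28 and 11.96 in Nfkb2-KO and 10.58 and 10.22 in DKO (-1.72 ± 0.12, adjusted p = 0.000168). H2-Eb1 was at 7.80 and 8.76 in Nfkb2-KO and 6.75 and 7.38 in DKO (-1.22 ± 0.27, adjusted p = 0.0398). H2-Ab1 was at 5.72 and 6.05 in Nfkb2-KO and 5.07 and 5.19 in DKO (-0.75 ± 0.09, adjusted p = 0.0022), and H2-Aa at 5.47 and 5.58 in Nfkb2-KO and 5.08 and 5.12 in DKO (-0.43 ± 0.10, adjusted p = 0.0439). All 4 had DKO libraries below both Nfkb2-KO libraries; Cd74 was called in every fit that left out a library, and without the block it was the 1 gene of the 4 still called. Because these genes also mark B cells and dendritic cells, markers of those cells are given beside them. Of 9 tested B cell markers 1 was called, Blk, with a difference of -0.27 ± 0.04. Summed levels here and below are the log2 of the summed un-logged values of all expressed list members. For B cell markers the summed level was 8.38 to 8.40 in Nfkb2-KO and 8.44 to 8.48 in DKO. Across the 8 libraries Cd79b lay between 7.09 and 7.72, Cd22 between 5.73 and 6.24 and Bank1 between 5.5 and 5.97. Pax5 was listed at 0. Of 10 tested myeloid and dendritic markers 1 was called, Zbtb46, with a difference of -1.22 ± 0.14, adjusted p = 0.00213. This call was lost without the block, and the other 9 differences were positive. The summed level of the list was 9.38 to 9.49 in Nfkb2-KO and 8.47 to 8.88 in DKO and was mostly Zbtb46. Across the libraries Mpeg1 lay between 5.61 and 6.23, Xcr1 between 4.94 and 5.52 and Lyz2 between 4.72 and 5.79. Itgax was at -0.25 or lower in every library, and Clec9a was listed at 0. The part of such cells in the MHC class II difference was not tested.

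Summed levels of CD8 T and NK cell markers were 8.60 to 8.62 in Nfkb2-KO and 8.62 to 8.64 in DKO. Of the 8 tested members limma called 0 (3 at an unadjusted p under 0.05, against 2253 of the 13797 genes tested). It also called 0 of 5 stromal and 0 of 3 erythroid and platelet markers, with 0 in either list at an unadjusted p under 0.05. Of 11 T cell identity genes 2 were called, both lower: Thy1 (-0.71 ± 0.10, adjusted p = 0.00519) and Cd6 (-0.38 ± 0.09, adjusted p = 0.0464). Their summed level was 16.50 to 16.60 in Nfkb2-KO and 16.36 to 16.45 in DKO.

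Guanylate-binding proteins, GTPases of cell-intrinsic defence induced by interferon, rose in 5 of 11 genes and fell in 0; the other 6 did not pass, and all 11 differences were positive (median 0.59). Gbp2 was at 11.61 and 12.10 in Nfkb2-KO and 13.07 and 13.02 in DKO (1.19 ± 0.16, adjusted p = 0.00414), Gbp3 at 11.46 and 11.90 in Nfkb2-KO and 12.63 and 12.65 in DKO (0.96 ± 0.12, adjusted p = 0.00265) and Gbp7 at 12.14 and 12.18 in Nfkb2-KO and 13.14 and 12.81 in DKO (0.81 ± 0.10, adjusted p = 0.00265). Each had both DKO libraries above both Nfkb2-KO libraries, near the WT values of 13.19 and 13.05 for Gbp2, 12.30 and 12.56 for Gbp3 and 12.91 and 12.91 for Gbp7. The 5 calls became 3 without DKO replicate 1 and 1, Gbp1, without the block, and the copies of this family are similar enough that reads may have been shared among them. Of 29 other interferon-stimulated genes 1 rose (Igtp, 0.44 ± 0.10, adjusted p = 0.0466) and 0 fell, against 2.07% and 2.96% of all genes tested. Their median was 0.10. The Igtp call was lost without the block, and the gene overlaps another coding gene, Irgm2, on the same strand. Tap1, a peptide transporter, differed by 0.10 ± 0.08 and was not called. The difference between these 2 lists was not tested.

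Core Treg identity genes mostly did not pass the test. Of 17 genes, 0 rose and 1 fell, Capg, an actin-capping protein (-0.59 ± 0.10, adjusted p = 0.0147), and the median was 0.01. However, 9 of the 17 had an unadjusted limma p under 0.05, against 2253 of the 13797 genes tested. Il2ra, the high-affinity IL-2 receptor chain, was at 16.05 and 16.16 in Nfkb2-KO and 16.33 and 16.52 in DKO (0.32 ± 0.11, adjusted p = 0.157), and Ikzf2 (Helios) differed by 0.26 ± 0.09, adjusted p = 0.203. Of 24 genes of effector and tissue Treg cells 7 rose and 3 fell, with a median of 0.36. Beside Gzmb and Klrg1, Pparg, the factor of fat-resident Treg cells, was at 6.13 and 6.41 in Nfkb2-KO and 6.90 and 7.85 in DKO (1.11 ± 0.17, adjusted p = 0.00728). Icos, a co-stimulatory receptor, was at 13.65 and 13.50 in Nfkb2-KO and 14.38 and 14.33 in DKO (0.78 ± 0.12, adjusted p = 0.00791). Maf, a factor of IL-10-producing and follicular cells, was at 12.11 and 11.78 in Nfkb2-KO and 12.69 and 12.84 in DKO (0.82 ± 0.16, adjusted p = 0.0244). DKO libraries lay above both Nfkb2-KO libraries for all 3. Ccr6, a chemokine receptor of Th17-like and effector Treg cells printed above, went the other way, at 10.09 and 10.06 in Nfkb2-KO and 9.31 and 8.75 in DKO (-1.04 ± 0.16, adjusted p = 0.00725). The number of raised effector genes was 5 without Nfkb2-KO replicate 1, 2 without Nfkb2-KO replicate 2, 2 without DKO replicate 1 and 2 without DKO replicate 2, and 0 without the block.

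Of 21 genes of resting T cells 6 rose and 2 fell (median 0.11). Satb1 and Igfbp4 belong here, as does Il6ra, the IL-6 receptor alpha chain, at 9.08 and 9.17 in Nfkb2-KO and 10.27 and 10.17 in DKO (1.09 ± 0.10, adjusted p = 0.000661). Satb1 and Il6ra were the 2 of these that held without the block. The number of raised resting genes was 3 without Nfkb2-KO replicate 1, 5 without Nfkb2-KO replicate 2, 2 without DKO replicate 1 and 2 without DKO replicate 2. Ikzf3 was the 1 gene of 5 in the Ikaros family to be called; Ikzf1 differed by 0.15 ± 0.09, adjusted p = 0.489. Of 15 follicular regulatory genes 3 rose, Icos and Maf among them, and 3 fell, among them Il21 and Cd200. The raised follicular count was 2 without Nfkb2-KO replicate 1, 0 without Nfkb2-KO replicate 2, 0 without DKO replicate 1 and 0 without DKO replicate 2; the lower count was 2 without Nfkb2-KO replicate 1, 2 without Nfkb2-KO replicate 2, 0 without DKO replicate 1 and 1 without DKO replicate 2. Both were 0 without the block.

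Lineage transcription factors of helper cells were lowered in 4 of 22 and raised in 2. Bhlhe40, which controls cytokine production, was at 13.62 and 13.25 in Nfkb2-KO and 11.94 and 11.38 in DKO (-1.77 ± 0.11, adjusted p = 9.98e-05). Runx3, a factor of cytotoxic and type 1 helper cells, was at 11.48 and 11.71 in Nfkb2-KO and 10.74 and 10.66 in DKO (-0.90 ± 0.12, adjusted p = 0.00511). Bhlhe40 held in every fit without 1 library, Runx3 did not, and neither was called without the block. Of 24 helper cytokine genes 5 fell and 1 rose. Xcl1, a chemokine for cross-presenting dendritic cells, was at 8.42 and 8.54 in Nfkb2-KO and 7.24 and 7.72 in DKO (-1.0 ± 0.12, adjusted p = 0.00265), and Il21, which supports B cells, at 6.41 and 6.27 in Nfkb2-KO and 5.41 and 5.72 in DKO (-0.77 ± 0.11, adjusted p = 0.00511). Lta and Ltb are the other 2 named members of the list.

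Homing genes were lowered in 2 of 21 and raised in 1, against 2.96% and 2.07% of all genes tested. Gpr15, which directs T cells to the colon, was at 10.66 and 9.42 in Nfkb2-KO and 8.89 and 8.48 in DKO (-1.35 ± 0.27, adjusted p = 0.0256). Its Nfkb2-KO libraries were far apart, the lower of them below both WT libraries, and the gene overlaps Cpox. Ccr6 fell, as above. The remaining 18 homing genes, which include most of the chemokine receptors, were not called. Over the whole list 15 of 21 had an unadjusted limma p under 0.05, against 2253 of the 13797 genes tested.

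Cytokine receptors and the STAT5 axis fell in 8 of 34 and rose in 2 (median -0.14). Both chains of the IL-18 receptor were lower: Il18r1 was at 12.94 and 13.21 in Nfkb2-KO and 12.21 and 11.87 in DKO (-1.04 ± 0.14, adjusted p = 0.00483) and Il18rap at 10.64 and 10.36 in Nfkb2-KO and 9.80 and 9.26 in DKO (-0.97 ± 0.14, adjusted p = 0.00633). Il1r2, the decoy receptor for IL-1, was at 12.86 and 12.34 in Nfkb2-KO and 11.93 and 11.63 in DKO (-0.82 ± 0.14, adjusted p = 0.0123). Without the block 2 of the 8 lower calls of this list remained. The lower count was 5 without Nfkb2-KO replicate 1, 8 without Nfkb2-KO replicate 2, 4 without DKO replicate 1 and 3 without DKO replicate 2. Of 21 co-stimulatory and checkpoint receptors 6 fell and 1, Icos, rose. Cd200, an inhibitory ligand, was at 12.79 and 12.62 in Nfkb2-KO and 11.78 and 11.52 in DKO (-1.05 ± 0.16, adjusted p = 0.00672), Cd86, a ligand of CD28 and CTLA-4, at 9.90 and 10.33 in Nfkb2-KO and 9.30 and 8.83 in DKO (-1.05 ± 0.21, adjusted p = 0.0227), and Havcr2 (TIM-3) at 9.09 and 9.12 in Nfkb2-KO and 8.28 and 8.51 in DKO (-0.71 ± 0.09, adjusted p = 0.00407). Havcr2 held in every fit without 1 library and without the block, whereas Cd200 and Cd86 did not hold without the block. The lower count of this list was 5 without Nfkb2-KO replicate 1, 5 without Nfkb2-KO replicate 2, 3 without DKO replicate 1 and 2 without DKO replicate 2.

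Granzyme B rose without the rest of the cytotoxic granule list. Of 13 genes, Gzmb was the 1 called higher, and 4 fell. Prf1, the pore-forming perforin, was at 6.15 and 6.52 in Nfkb2-KO and 6.22 and 6.44 in DKO (-0.01 ± 0.09, adjusted p = 0.982), so its groups overlapped. Ctsw, a cathepsin of cytotoxic cells, was at 10.54 and 10.40 in Nfkb2-KO and 9.71 and 9.62 in DKO (-0.81 ± 0.12, adjusted p = 0.00619), and Serpinb9, the inhibitor of granzyme B, at 10.84 and 10.76 in Nfkb2-KO and 10.50 and 10.08 in DKO (-0.51 ± 0.10, adjusted p = 0.0237). Ctsw overlaps Fibp, and none of the 4 lower calls held without Nfkb2-KO replicate 1, without DKO replicate 2 or without the block. Of 13 phosphodiesterases 2 rose, Pde2a and Pde3b, and 0 fell. Pde3b was at 6.32 and 6.40 in Nfkb2-KO and 7.40 and 7.68 in DKO (1.18 ± 0.12, adjusted p = 0.00134). Both phosphodiesterase calls held without each library and without the block.

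Immediate activation factors were lower where they changed. Of 25 AP-1, NR4A and EGR genes 4 fell and 0 rose (median -0.22). Nr4a2, an orphan nuclear receptor induced by antigen receptor signals, was at 11.32 and 11.08 in Nfkb2-KO and 10.43 and 9.87 in DKO (-1.05 ± 0.12, adjusted p = 0.00198), and its relative Nr4a3 differed by -0.56 ± 0.13, adjusted p = 0.048. Atf3, a stress-induced factor, was at 10.11 and 10.21 in Nfkb2-KO and 9.30 and 9.34 in DKO (-0.84 ± 0.11, adjusted p = 0.00483), and Junb differed by -0.39 ± 0.09, adjusted p = 0.0387. Without the block 0 of these 4 genes were called. The lower count was 4 without Nfkb2-KO replicate 1, 3 without Nfkb2-KO replicate 2, 1 without DKO replicate 1 and 1 without DKO replicate 2. Of 28 genes of T cell receptor signalling 3 fell and 1 rose. Bcl10, which links the receptor to the IKK complex, was at 10.61 and 10.65 in Nfkb2-KO and 10.13 and 10.20 in DKO (-0.47 ± 0.08, adjusted p = 0.0116), and Themis, a regulator of receptor signal strength, at 8.89 and 8.89 in Nfkb2-KO and 9.55 and 9.75 in DKO (0.76 ± 0.10, adjusted p = 0.00323). Bcl10 stood lower in both DKO libraries and Themis higher, and neither was called without the block.

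Of 33 cell cycle genes 11 were called higher, 1 lower and 21 not called; 28 differences were positive and the median was 0.37. Mki67, the proliferation antigen, was at 9.89 and 10.40 in Nfkb2-KO and 10.83 and 11.30 in DKO (0.92 ± 0.11, adjusted p = 0.00306), Rrm2, a ribonucleotide reductase subunit, at 8.86 and 9.38 in Nfkb2-KO and 9.48 and 10.48 in DKO (0.87 ± 0.13, adjusted p = 0.00693) and Ccna2, cyclin A2, at 7.74 and 8.53 in Nfkb2-KO and 8.36 and 9.35 in DKO (0.72 ± 0.09, adjusted p = 0.00265). Replicate 2 exceeded replicate 1 in both genotypes, and for Ccna2 the groups overlapped although DKO was the higher within each replicate. Aurkb, the mitotic kinase Aurora B, differed by 0.71 ± 0.11, adjusted p = 0.00672. The list leaned on the replicate block and on single libraries: the raised count was 0 without the block, and 9 without Nfkb2-KO replicate 1, 2 without Nfkb2-KO replicate 2, 4 without DKO replicate 1 and 1 without DKO replicate 2.

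Few genes of the metabolic lists were called. Of 24 respiratory chain genes limma called 0 in either direction, and 0 had an unadjusted p under 0.05 (median -0.07, 21 negative), with Atp5b at -0.06 ± 0.10 and Atp5a1 at -0.01 ± 0.09. Of 24 cholesterol synthesis genes 1 rose, Dhcr7 (0.44 ± 0.08, adjusted p = 0.0164), and Srebf2, a transcription factor of the pathway, differed by 0.04 ± 0.09, adjusted p = 0.906. Of 23 glycolysis and hypoxia genes 2 rose: Egln3, a hypoxia-inducible prolyl hydroxylase, was at 7.87 and 7.86 in Nfkb2-KO and 8.57 and 8.68 in DKO (0.76 ± 0.09, adjusted p = 0.00266), and Pdk1, which limits pyruvate oxidation, differed by 0.69 ± 0.12, adjusted p = 0.0135. Of 24 ATF4 and unfolded protein response genes 3 rose, Asns (0.60 ± 0.08, adjusted p = 0.00508), Phgdh (0.49 ± 0.10, adjusted p = 0.0292) and Chac1 (0.32 ± 0.07, adjusted p = 0.0442), and 0 fell. For Asns and Phgdh the groups overlapped, with DKO the higher within each replicate, and none of these 3 held without the block.

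**Figure D4:**
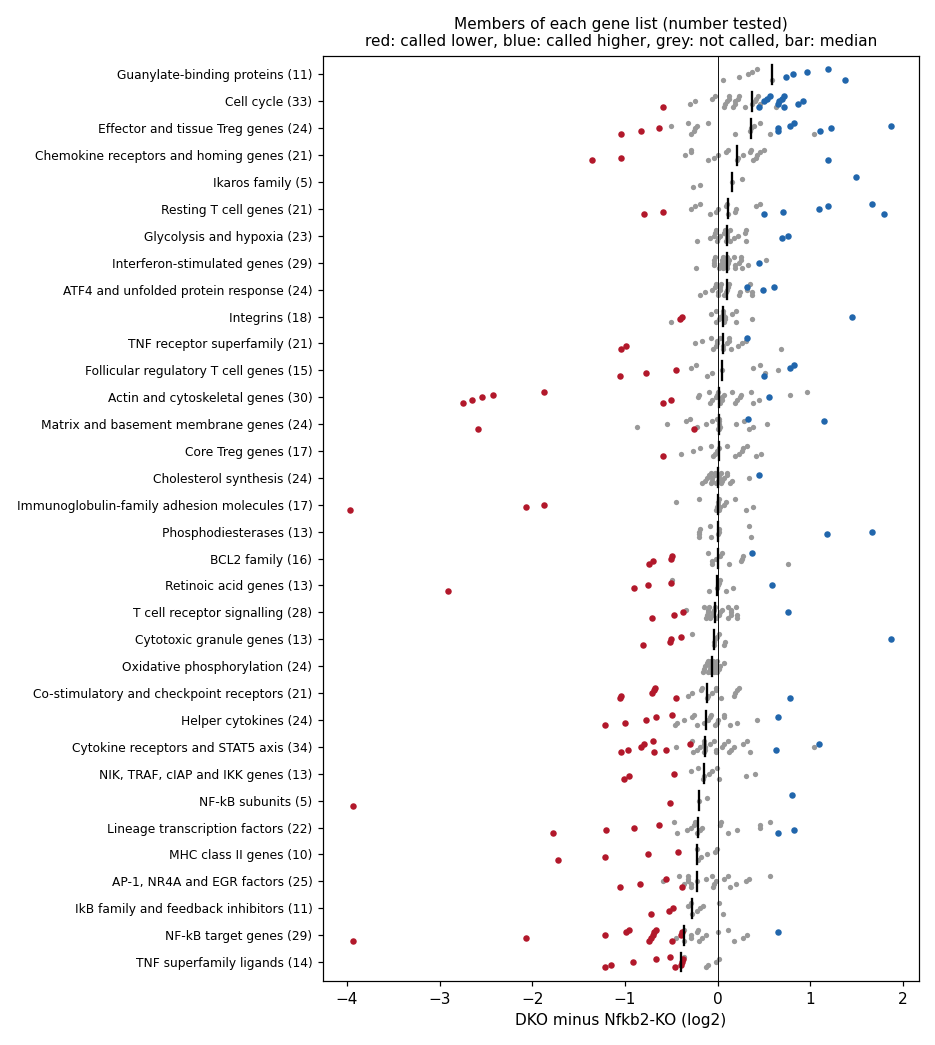
DKO minus Nfkb2-KO difference (horizontal axis, log2) of each tested member of the 34 gene lists, ordered by the list median (bar); red members were called lower, blue higher and grey not called, and the number tested stands beside each name. The medians of TNF superfamily ligands and NF-kB targets lie to the left of 0, and those of guanylate-binding proteins and cell cycle genes to the right.

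The same removal of RelB in Treg cells that kept Nfkb2 was compared through RelB-KO minus WT, which shares no library with DKO minus Nfkb2-KO. There 2 genes were called (0.0145% of those tested), both lower: Relb itself (-4.14 ± 0.12) and Serpina3g, a serine protease inhibitor (-0.96 ± 0.08, adjusted p = 0.00959). At an unadjusted p under 0.05 there were 432 genes, against 2253 in the Nfkb2-deficient cells. The count of 2 became 34 without WT replicate 2, 10 without RelB-KO replicate 2 and 6 without WT replicate 1. The difference between the 2 removals was tested as an interaction. It was called for 65 genes (0.471%), 49 of them more negative and 16 more positive in the Nfkb2-deficient cells. Of the 65, 64 were also called in DKO minus Nfkb2-KO, and the exception was Podnl1. The interaction contains the DKO minus Nfkb2-KO difference, so this overlap is partly built in. The interaction for Relb was 0.21 ± 0.17, adjusted p = 0.855, so deletion of the gene itself was not shown to differ between the backgrounds.

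Among those 65 were 12 of the 15 leading lower and 6 of the 15 leading higher genes. The leading genes were ranked by a difference that the interaction contains, which favours such an overlap. Dscam differed by -3.96 ± 0.17 in Nfkb2-deficient and by -1.34 ± 0.17 in Nfkb2-sufficient cells, an interaction of -2.63 ± 0.23, adjusted p = 0.00509. Aldh1a2 differed by -2.91 ± 0.11 and -0.35 ± 0.11 (-2.56 ± 0.16, adjusted p = 0.00107). Gzmb differed by 1.87 ± 0.15 and -0.11 ± 0.15 (1.99 ± 0.21, adjusted p = 0.00966), and Ikzf3 by 1.49 ± 0.08 and 0.34 ± 0.08 (1.15 ± 0.11, adjusted p = 0.00665). In each of these the difference between cells with and without RelB was larger where Nfkb2 was also missing. Interaction values of the pathway genes were -0.78 ± 0.13 for Ltb and -0.94 ± 0.15 for Birc2, both called, whereas Rel (-0.58 ± 0.14, adjusted p = 0.158), Nfkbie (-0.61 ± 0.14, adjusted p = 0.134) and Klrg1 (0.41 ± 0.34, adjusted p = 0.861) were not. For those genes, a difference between the backgrounds was not shown.

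Directions in the 2 backgrounds can be set side by side because no library is shared. Of the 408 genes called lower in DKO, RelB-KO minus WT was negative for 330 (80.9%, against 48.2% of all genes tested), with a median of -0.08. Of the 285 genes called higher, it was positive for 210 (73.7%, against 51.8%), with a median of 0.08. The size was smaller than in DKO minus Nfkb2-KO for 407 of the 408 and for all 285, and choosing genes by their DKO minus Nfkb2-KO call favours that outcome. The interaction counts moved with single libraries, from 11 without DKO replicate 2 and 13 without DKO replicate 1 to 123 without WT replicate 2, and 1 gene was called without the block. DKO itself differed from WT in 9 genes (0.0652%; 7 lower, 0.0507%, and 2 higher) and Nfkb2-KO from WT in 402 (2.91%; 264 higher, 1.91%, and 138 lower), comparisons that share libraries with DKO minus Nfkb2-KO and are given as context only.

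**Figure D5:**
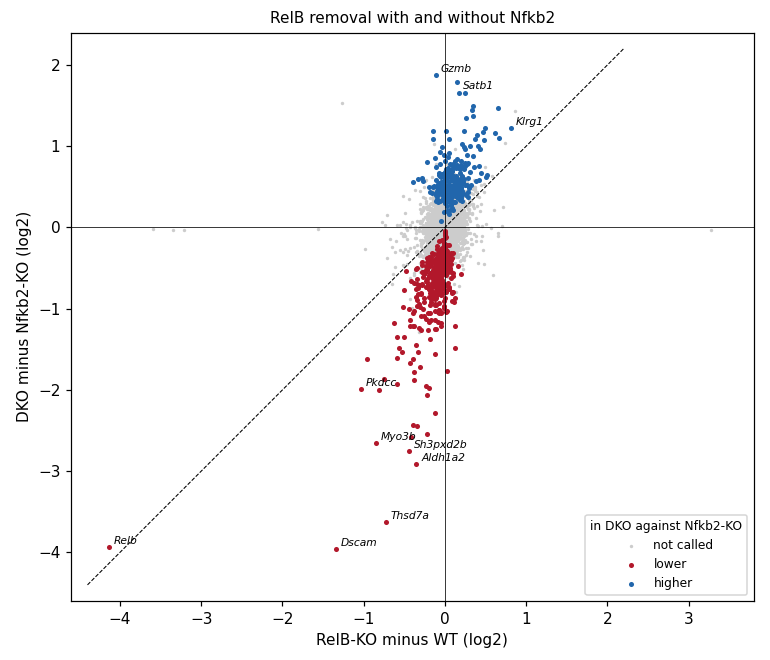
RelB removal in Nfkb2-deficient cells (DKO minus Nfkb2-KO, vertical axis, log2) against RelB removal in Nfkb2-sufficient cells (RelB-KO minus WT, horizontal axis, log2) for the genes tested, coloured by the call in the former; the dashed line marks equal differences. Relb lies low on both axes, while Dscam, Aldh1a2, Gzmb and the other called genes spread along the vertical axis and stay nearer 0 on the horizontal one.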

How the data were processed

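Total RNA from sorted, stimulated Treg cells was made into TruSeq libraries (8 libraries, 2 in each of 4 genotypes), per the labels' protocols. The submitters' processing notes name STAR, mm10 and DESeq2 1.10.1 without roles; how reads were counted, with which annotation, and how batches were corrected is not given in the sources used here. The deposited values are log2 numbers whose header calls them batch-corrected log2 RPKM. Un-logged, however, they sum to 18.2 to 19.7 M per library, so they were read as a log2 scale relative to library size. Weakly expressed genes had nearly equal values in all libraries, so their differences may be too small, which was not tested. Small differences at low expression could still be called, as for Nid1 (-0.26) and Blk (-0.27). No read counts were used, so no counting interval is given.

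Of 22432 rows, 6247 at 0 throughout and 1 with a blank cell (Zwilch) were left out, and 13797 genes whose un-logged values averaged at least 1 entered the tests; 25 symbols turned into dates, 20 of them tested, are not named. limma 3.58.1 in R 4.3.3 fitted the values as deposited for 4 genotypes with replicate number as a block over all 8 libraries, with a variance trend and 3 residual degrees of freedom, after a check on simulated data. Pairing by replicate number was checked: replicate differences correlated across genes between genotypes at 0.81 to 0.89 in every pair of genotypes, although the labels do not say what a number stands for.

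Genes named are Relb, Nfkb2 and Foxp3; the 15 largest called differences in each direction with groups apart; up to 4 called members of each gene list by size, with up to 2 uncalled members by level where fewer than 2 were called; the 5 largest called interactions in each direction; and all members of the 3 NF-kB lists (148 genes). The comparison, the members and the lists were chosen with earlier results of these data known. Loci are from GENCODE M21 (GRCm38) and promoter windows from RefSeq (GRCm38.p6). Alternatives were no block, quantile normalization, a pseudocount of 1, other filters on low values, no variance trend, the 4 DKO and Nfkb2-KO libraries alone and leaving out each library; a fit without the 92 genes with a large replicate gap and the list counts without the block or without a library were added after seeing the data. A few genes that the rule names are not reported here.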

Additional observations from a re-analysis of the deposited data

Results flagged for a closer look

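In 28 of the named genes the effect of removing RelB differed between Nfkb2-deficient and Nfkb2-sufficient cells by the interaction test of the limma model (the DKO minus Nfkb2-KO difference less that between RelB-KO and WT, in log2 units; adjusted p under 0.05 over all genes tested). More negative in the Nfkb2-deficient cells were Thsd7a (-2.90), Dscam (-2.63), Aldh1a2 (-2.56), Scin (-2.32), Sh3pxd2b (-2.31), Hspg2 (-2.16), Rnf165 (-2.16), Sspo (-2.10), Whrn (-2.04), Vcam1 (-1.85), Myo3b (-1.81), Stc1 (-1.79), Igsf3 (-1.49), Cd74 (-1.42), Bhlhe40 (-1.40), Tnfrsf11a (-1.0), Tnfsf15 (-0.95), Birc2 (-0.94) and Ltb (-0.78). More positive were Gzmb (1.99), Satb1 (1.49), Pde2a (1.42), Pde3b (1.33), Plxnd1 (1.24), Ikzf3 (1.15), Itgb3 (1.11), Il6ra (1.04) and Mki67 (0.99). Without the replicate block 1 gene of the whole table was called in this test, and without the variance trend 0 were, with 1207 genes at an unadjusted p under 0.05. The test uses the WT libraries, of which replicate 1 stood apart in sex-linked transcripts. A fit without that library was run, but it left 1 WT library and cannot separate this trait from others. The part of the sex-linked difference in these values was not tested.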

How the results depend on the processing

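Replicate numbers paired the libraries, and the block carried much of the sensitivity. Without the replicate block the counts called were 106 for DKO minus Nfkb2-KO (693 with it) and 1 for RelB-KO minus WT (2 with it). They were 1 for the interaction (65 with it), 2 for DKO minus WT (9 with it) and 47 for Nfkb2-KO minus WT (402 with it). Of the 108 called genes among the 148 named, 75 lost their call. Every genotype had 1 library of each replicate number, so the block does not alter the differences and no direction could change. Without the variance trend the counts were 271, 1, 0, 1 and 40 in the same order, and 50 named genes lost their call. With no filter on low values the interaction gave 18 genes, DKO minus WT 5 and Nfkb2-KO minus WT 245. With only the DKO and Nfkb2-KO libraries in the fit, DKO minus Nfkb2-KO gave 1257 genes (596 higher), which raised the higher share.

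Leaving out each library in turn gave 135 to 804 genes for DKO minus Nfkb2-KO, 1 to 34 for RelB-KO minus WT, 11 to 123 for the interaction, 4 to 55 for DKO minus WT and 143 to 486 for Nfkb2-KO minus WT. Called with all libraries and in each of these 8 fits were 109 genes in DKO minus Nfkb2-KO, 89 lower and 20 higher. Among the named genes, 63 lost their call without DKO replicate 2, 45 without DKO replicate 1, 32 without Nfkb2-KO replicate 2 and 29 without Nfkb2-KO replicate 1. In fits without a library of a genotype, its lone library was assumed to vary like the other groups. Quantile normalization, the pseudocount, a mean log2 value of at least 5 and leaving out the genes with a large replicate gap kept DKO minus Nfkb2-KO between 624 and 701. The cause of these shifts was not tested. Read depth per library is unknown, so what depth limits could not be stated.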

Other observations

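Genes ranked just behind the leading ones, chosen after their values were seen, add members to the groups described. Marcksl1, an actin-binding substrate of protein kinase C, was at 11.49 and 11.59 in Nfkb2-KO and 9.65 and 9.69 in DKO (-1.87 ± 0.13, adjusted p = 0.000165). Nrn1, which encodes neuritin, a protein found on anergic and regulatory T cells, was at 12.29 and 12.17 in Nfkb2-KO and 10.42 and 10.19 in DKO (-1.93 ± 0.20, adjusted p = 0.00135). Serpina3g, the gene that also fell in Nfkb2-sufficient cells, was at 11.97 and 12.11 in Nfkb2-KO and 10.37 and 10.48 in DKO (-1.62 ± 0.08, adjusted p = 3.95e-05). In all 3 the libraries of a genotype lay close together and the groups were far apart. Plekhg1 (-1.96 ± 0.18), Fsd1l (-1.77 ± 0.14), Mid2, a TRIM-family ubiquitin ligase (-1.67 ± 0.17) and Rrad, a Ras-related GTPase (-1.62 ± 0.16) were also lower, and the calls of all 7 held in every fit without 1 library.

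Among genes that rose, Plxnd1, a semaphorin receptor, was at 9.92 and 9.84 in Nfkb2-KO and 10.87 and 11.09 in DKO (1.1 ± 0.10, adjusted p = 0.000876). Il17rb, a chain of the IL-25 receptor, was at 6.27 and 6.41 in Nfkb2-KO and 7.35 and 7.67 in DKO (1.17 ± 0.20, adjusted p = 0.0127), and Ctsh, a lysosomal cathepsin, at 5.60 and 5.69 in Nfkb2-KO and 6.48 and 6.99 in DKO (1.09 ± 0.16, adjusted p = 0.00672). Sytl2, which tethers secretory vesicles, differed by 1.08 ± 0.16, Msrb3, a methionine sulfoxide reductase, by 1.03 ± 0.16, Smarcd3, a chromatin remodelling subunit, by 1.01 ± 0.17 and Tanc2, a scaffold, by 1.00 ± 0.10. Plxnd1 and Tanc2 held in every fit without 1 library and the other 5 did not.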
